A study of Mus musculus with 7 samples.

Results

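The 5 nuclear receptor genes Rara, Rarb, Rarg, Rxra and Rxrb were followed through 6 days of retinoic acid treatment of mouse embryonic stem cells. They were chosen by name, as the receptors for retinoic acid and their retinoid X partners, and all 5 were listed in the deposited table, where they held 6 of 15296 transcript rows (5 of 12071 gene symbols). Rarg had 2 rows and each of the others 1. CCE is a mouse embryonic stem cell line, here grown on gelatin without feeder cells. The day 0 cells were kept in leukemia inhibitory factor (LIF), a self-renewal cytokine for mouse stem cells, with DMSO as the vehicle. The cells of days 1 to 6 had 5 µM retinoic acid and no LIF. Each day gave 1 library of total RNA depleted of ribosomal RNA, 7 altogether, so no day has a replicate. Effects of the ligand, of LIF withdrawal and of days in culture cannot be told apart.

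Retinoic acid is a vitamin A derivative that enters the nucleus and binds the retinoic acid receptors (RARα, RARβ and RARγ, encoded by Rara, Rarb and Rarg). These act as heterodimers with a retinoid X receptor (RXRα, RXRβ or RXRγ), which is also the partner of several other nuclear receptors. The pair sits on DNA at retinoic acid response elements, which are direct repeats of a short half-site, and exchanges corepressors for coactivators when the ligand binds. Rarb is a textbook target of the receptors themselves.

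Values are the deposited log2 scaled reads, which are not divided by transcript length, and each can be turned back into a whole number of reads. Summed over all listed transcript rows, the reads came to between 7194325 on day 6 and 17923852 on day 4. Reads shared by rows of a gene may be counted more than once in these sums. The median over all listed rows was 0.30 log2 units higher on day 5 than on day 0, and 0.91 lower on day 6 than on day 0. Intervals are exact binomial (Clopper-Pearson) intervals at 95% on the reads and cover counting error only. All 6 markers of embryonic stem cells were well counted on day 0, with at least 1468 reads each. The day 6 library differed from day 5 with transcript length across rows (Spearman rho −0.74 over 9177 rows), so trends were fitted over days 0 to 5 and day 6 is described apart.

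In outline, Rarg was the most abundant of the 5 receptors per length of transcript on days 0 and 1 and Rarb the least abundant on day 0, and from day 3 on Rarb was the most abundant. Rarb rose with day. Rarg passed the test that allows a straight or a curved course but not that of a straight line. The largest step of Rarg was between days 1 and 2. Rara, Rxra and Rxrb stayed within a span of 1.24 log2 units or less over days 0 to 5, and none of them passed a test.

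**Figure D1:**
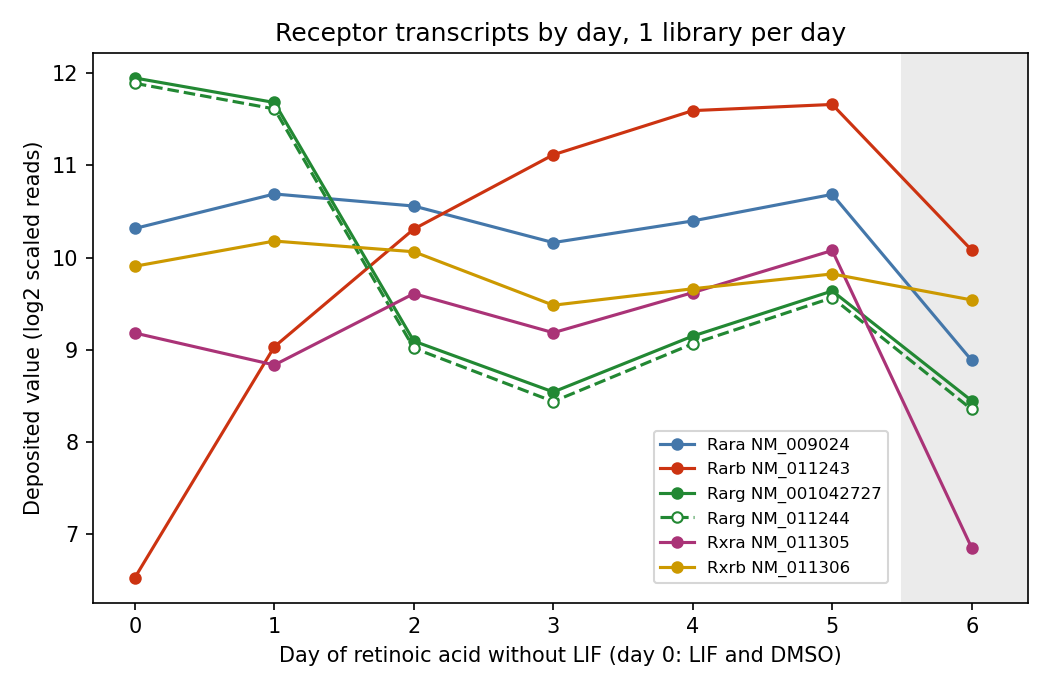
Deposited log2 scaled reads (vertical axis) of the 6 receptor transcript rows against day (horizontal axis), 1 library per point, with day 6 shaded. Rarb climbs from 6.53 on day 0 to 11.66 on day 5 and crosses the 2 Rarg rows between days 1 and 2, where those go from 11.68 and 11.61 to 9.09 and 9.02.

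Rarg, which encodes RARγ, lies on the minus strand of chromosome 15. Its rows are NM_011244 (2927 nt), chr15:102065370-102087914 in mm9, and NM_001042727 (2578 nt), chr15:102065370-102076783, so they end at the same base and start 11131 bases apart. NM_001042727 stood at 11.95, 11.68, 9.09, 8.54, 9.15, 9.64 and 8.45 from day 0 through day 6. NM_011244 stood at 11.89, 11.61, 9.02, 8.44, 9.06, 9.56 and 8.35 on the same days. The first 2 days are high and the later days low, with the lowest value before day 6 on day 3. NM_011244 had between 93.0% (day 3) and 96.1% (day 0) of the reads of NM_001042727 on every day, so the 2 rows gave nearly the same count throughout. Transcripts of a gene can share reads, and the rows are therefore read as 1 gene whose choice of start cannot be told from these values.

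The largest step was from day 1 to day 2, where Rarg NM_001042727 was 6.02-fold lower (log2 −2.59, interval −2.77 to −2.41), from 1908 reads to 310. Of the 9177 rows kept for the fit, only 5 rows of other genes had a lower value in this step, and the second Rarg row stood at −2.60. The day 1 minus day 0 difference of NM_001042727 was −0.27 (interval −0.36 to −0.18). On day 3 Rarg was 10.6-fold below day 0 (log2 −3.41, interval −3.63 to −3.19). It then stood higher again, by 1.10 from day 3 to day 5 (interval 0.86 to 1.34), 2.14-fold. On day 5 it was still 4.96-fold below day 0 (log2 −2.31, interval −2.44 to −2.18).

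Rarb, which encodes RARβ, was represented by NM_011243 (2782 nt), on the minus strand of chromosome 14 at chr14:17263353-17407724 in mm9. From day 0 through day 6 it had 48, 304, 720, 1113, 2806, 2708 and 394 reads. On the log2 scale of the table the values were 6.53, 9.03, 10.31, 11.11, 11.59, 11.66 and 10.08. Each day up to day 4 was above the one before beyond its counting interval. The steps shrank from 2.50 (interval 2.06 to 2.98) on day 1 through 1.28, 0.81 and 0.48 to 0.067 (interval −0.0098 to 0.14) from day 4 to day 5. Rarb was 5.68-fold above day 0 on day 1 and 35.1-fold above it on day 5 (log2 5.13, interval 4.72 to 5.58).

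The promoters of these 2 genes are shown because they moved in opposite directions and because Rarb is known as a receptor target. The windows are RefSeq's for build GRCm38.p6, 250 bases before to 50 bases after an annotated start, and all 5 receptor genes matched, with 11 windows in all. Capitals mark any of the half-sites AGGTCA or GGGTCA or AGTTCA or GGTTCA on either strand, so that a half-site on the opposite strand appears as its reverse complement.
Rarb, minus strand, chr14:16575427-16575726: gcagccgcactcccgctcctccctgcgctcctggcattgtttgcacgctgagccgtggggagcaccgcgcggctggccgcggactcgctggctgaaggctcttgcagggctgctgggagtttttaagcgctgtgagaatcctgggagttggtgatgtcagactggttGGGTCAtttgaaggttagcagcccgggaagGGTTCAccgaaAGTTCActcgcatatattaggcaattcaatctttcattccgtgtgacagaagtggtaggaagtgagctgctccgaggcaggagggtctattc
Rarg, minus strand, upstream start, chr15:102257473-102257772: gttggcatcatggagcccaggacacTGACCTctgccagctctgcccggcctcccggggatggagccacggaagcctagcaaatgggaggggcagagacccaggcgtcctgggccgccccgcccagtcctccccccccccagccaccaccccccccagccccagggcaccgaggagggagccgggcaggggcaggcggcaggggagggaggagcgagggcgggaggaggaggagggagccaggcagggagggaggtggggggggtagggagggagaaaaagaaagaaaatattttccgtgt
Rarg, minus strand, downstream start, chr15:102246451-102246750: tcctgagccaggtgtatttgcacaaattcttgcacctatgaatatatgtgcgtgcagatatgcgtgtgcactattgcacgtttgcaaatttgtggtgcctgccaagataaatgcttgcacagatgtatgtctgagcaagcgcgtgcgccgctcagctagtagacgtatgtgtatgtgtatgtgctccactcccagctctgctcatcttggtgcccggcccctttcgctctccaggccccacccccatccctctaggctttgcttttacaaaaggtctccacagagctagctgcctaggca
The Rarb window holds 3 half-sites. The last 2 of them, GGTTCA and AGTTCA, lie in the same direction with 5 bases between them, from 53 to 37 bases before the start, which is the direct repeat called DR5: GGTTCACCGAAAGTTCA. The upstream Rarg window holds 1 half-site, on the opposite strand, and the downstream one none.

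A DR5 built from these half-sites was found in 32 of 32851 promoter windows of this length (0.0974%), and a single half-site in 43.7% of them. Among the 11 receptor windows, only the Rarb window holds a DR5, 5 windows hold at least 1 half-site, and none holds the repeat with 2 bases (DR2, 0.268% of all windows) or 1 base between half-sites (DR1, 0.222%). Of the genes listed in the expression table whose symbol matched a window, 3 of 8430 had a DR5 there. They were Rarb, Cyp26a1, the gene of a retinoic acid hydroxylase that clears the ligand, and Blvrb, a biliverdin reductase gene. On day 1 minus day 0 Cyp26a1 differed by 7.99 and Rarb by 2.50, and Blvrb by −0.017. Over all 8430 such genes 9.21% were at least 2-fold higher on day 1. A match is a description of letters in these windows and not evidence of binding, and sites outside the windows were not searched.

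Rara, which encodes RARα, was represented by NM_009024 (3260 nt), on the plus strand at chr11:98799009-98836256 in mm9. From day 0 through day 6 it stood at 10.32, 10.69, 10.56, 10.16, 10.40, 10.69 and 8.88. Over days 0 to 5 the course spans 0.53 log2 units, and day 1 and day 5 are the highest. Day 5 minus day 0 was 0.37 (interval 0.24 to 0.51), and 0.073 with each library centred on its median.

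Of the retinoid X receptors, Rxrg had 0 rows listed under that symbol and so was not analysed here. Rxra, which encodes RXRα, was represented by NM_011305 (5277 nt), the longest of the 6 rows, on the plus strand at chr2:27532720-27618839 in mm9. Its values from day 0 through day 6 were 9.18, 8.83, 9.61, 9.18, 9.62, 10.08 and 6.85. Day 5 is the highest and day 1 the lowest before day 6. Day 5 minus day 0 was 0.90 (interval 0.71 to 1.09), 1.86-fold, and came to 0.60 with median centring and 0.39 after a correction for transcript length.

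Rxrb, which encodes RXRβ, was represented by NM_011306 (2587 nt), on the plus strand at chr17:34168796-34175344 in mm9. It had 9.91, 10.18, 10.06, 9.48, 9.66, 9.82 and 9.54 from day 0 through day 6. Its span over days 0 to 5 was 0.70 log2 units, with day 1 highest and day 3 lowest. Day 5 minus day 0 was −0.083 (interval −0.25 to 0.083), a difference within counting error, and −0.38 with median centring.

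**Figure D2:**
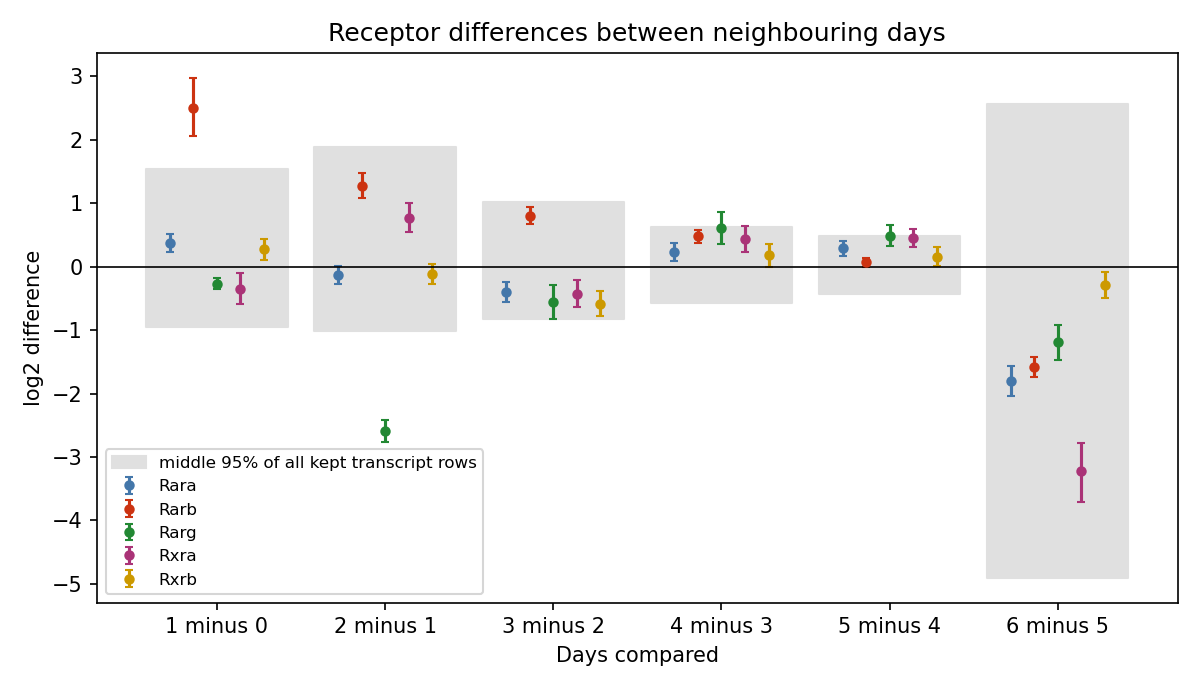
Log2 difference between neighbouring days (vertical axis) for each step (horizontal axis), with points for the 5 receptors (Rarg by NM_001042727), bars for the counting interval at 95% and grey boxes for the middle 95% of the 9177 kept rows. Rarb at 2.50 on the first step and Rarg at −2.59 on the second lie outside the grey boxes.

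On single days a difference of at least 2-fold was called, with no test. Of the 6 rows, 1 (Rarb) was at least 2-fold higher and 0 were at least 2-fold lower on day 1 than on day 0, beside 6.24% and 2.21% of the 9177 kept rows. From day 1 to day 2, 1 row (Rarb) was higher and 2 rows (both Rarg) were lower, beside 8.43% and 2.64% of all rows. From day 0 to day 5 the same division held, 1 Rarb row higher and 2 Rarg rows lower, beside 21.9% and 13.6%. The 2 Rarg rows were also the receptor rows at least 2-fold higher on day 5 than on day 3, beside 1.77% of all rows. With median centring these differences were 0.97 and 1.00, and NM_001042727 was then under 2-fold.

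A straight line on day was tested for each row with limma, with Benjamini-Hochberg adjustment over 9177 rows. Rarb rose by 0.98 ± 0.16 (SE) log2 units per day over the 6 libraries of days 0 to 5 (adjusted p = 0.00484). It was the 1 receptor row of 6 that rose, beside 26.7% of all rows, and 0 of 6 fell, beside 25.7%. The Rarg rows had slopes of −0.56 ± 0.21 (adjusted p = 0.0591) and −0.57 ± 0.21 (adjusted p = 0.0596). Rxra had a slope of 0.18 ± 0.065 (adjusted p = 0.0528), Rxrb one of −0.073 ± 0.054 (adjusted p = 0.289) and Rara one of 0.016 ± 0.052 (adjusted p = 0.805). The median slope was −0.028 over the 6 receptor rows and 0.0067 over all rows tested.

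A curved course was tested with limma's moderated F-test on a linear and a square term of day, which can also be passed by a straight course. It called 3 of the 6 rows, beside 51.7% of all rows, so the count is near the share over all rows. The 3 were Rarb (adjusted p = 0.000938) and both Rarg rows, which are read as 1 gene (adjusted p = 0.0137 for NM_001042727 and 0.0135 for NM_011244). Rarg therefore changed over days 0 to 5, while its straight-line slope did not pass. Its fitted square term was 0.30 per day squared, a bend upward, and that of Rarb was −0.27, a bend downward. Rxra (adjusted p = 0.0843), Rxrb (0.513) and Rara (0.863) did not pass. With day 6 in the fit the line for Rarb was not called (0.61 per day, adjusted p = 0.136). The lines of the 2 Rarg rows were called with median centring (adjusted p = 0.0462 and 0.0466), without day 2 (0.0359 and 0.0368) and without day 5 (0.0249 and 0.0248), and that of Rxra without day 2 (0.0449) or day 3 (0.0483). The slope of Rxra was smaller with length correction (0.10, adjusted p = 0.234) and without day 5 (0.12, adjusted p = 0.278).

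Levels of different receptors were compared per kilobase of transcript, with NM_001042727 standing for Rarg. On day 0 the order was Rarg at 1533 scaled reads per kb, Rara at 391, Rxrb at 371, Rxra at 110 and Rarb at 33.2. Rara and Rxrb did not differ beyond counting error, by 0.076 log2 units (interval −0.093 to 0.25), and each other neighbour did. On day 2 Rara (463), Rarb (456) and Rxrb (413) stood together with no neighbour in that group beyond counting error, above Rarg (212) and Rxra (148). If the 2 Rarg rows were added up, Rarg would stand at 389 on that day, close to Rxrb, so its gap below the group depends on how Rarg is counted. On day 5 the order was Rarb at 1164, Rara at 505, Rxrb at 350, Rarg at 309 and Rxra at 205, and all 4 neighbouring differences exceeded counting error. Rarb was thus the lowest of the 5 on day 0 and the highest from day 3 on.

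**Figure D3:**
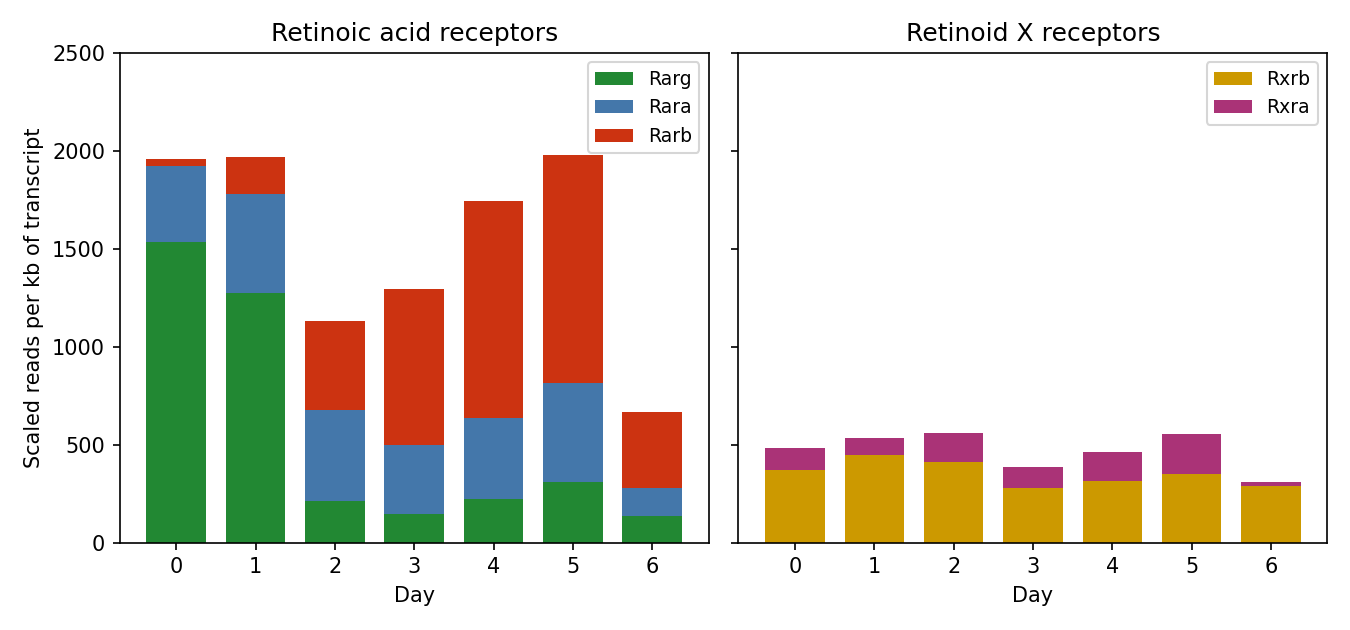
Stacked bars of scaled reads per kb of transcript (vertical axis, from 0) on each day (horizontal axis), for the retinoic acid receptors (left) and the retinoid X receptors (right), 1 library per bar. The largest block on the left passes from Rarg on days 0 and 1 to Rarb on days 3 to 6, and the right bars are highest on day 2, at 561.

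Summed per kb, the 3 retinoic acid receptor genes came to 1957, 1969, 1130, 1293, 1745 and 1978 scaled reads from day 0 through day 5. How reads shared by the 2 Rarg rows were counted is not known. If such reads were split between the rows, Rarg would be their sum, 2829 per kb on day 0 and 567 on day 5, where it would rank above Rara, and the summed level of the 3 genes would be 3253 and 2236 on these days. Shares that follow take NM_001042727 alone. On days 0, 1, 2 and 5 Rarg made up 78.3%, 64.7%, 18.7% and 15.6% of the sum, and Rarb 1.69%, 9.56%, 40.3% and 58.8%. With the 2 Rarg rows added up, Rarg had 87.0% on day 0 and 25.4% on day 5, Rarb 1.02% and 52.0%, and Rarb over Rarg still turned positive on day 2, at 0.23 on the log2 scale. The share of Rara was 25.7%, 40.9% and 25.5% on days 1, 2 and 5. The 2 retinoid X receptor genes together had 481, 535, 561, 387, 462 and 554 over the same days. Per kb, the retinoic acid receptor sum was 4.07, 2.01 and 3.57 times the retinoid X receptor sum on days 0, 2 and 5, with Rxrg not counted. With the 2 Rarg rows added up, the retinoic acid receptor sums on these days would be 3253, 1307 and 2236. The 3 ratios would then be higher, and those of days 0 and 5 further apart.

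A ratio of 2 receptors within a library does not change when a library is multiplied by a constant, as in median centring, but it can change with quantile normalization or length correction. The ratios here are of the deposited values, with NM_001042727 for Rarg. Rarb over Rarg per kb was −5.53 on the log2 scale on day 0 (interval −5.97 to −5.12), or 46.2-fold less Rarb. It was −2.76 on day 1 and 1.11 on day 2 (interval 0.91 to 1.30), and then 2.46, 2.34, 1.91 and 1.52 up to day 6. The ratio crossed equality between days 1 and 2 and was largest on day 3, at 5.52-fold more Rarb (interval 2.24 to 2.69 on the log2 scale). Rara over Rarg went from −1.97 on day 0 and −1.33 on day 1 to 1.13 on day 2, and was 0.71 on day 5. With the 2 Rarg rows added up, Rarg would be at 389 per kb on day 2, still below Rara at 463. On day 5 Rarg would be at 567, above Rara at 505, so the sign of this ratio on day 5 depends on how Rarg is counted. From day 0 through day 5 Rxra over Rxrb was −1.75, −2.37, −1.48, −1.33, −1.07 and −0.77 (interval on day 5 −0.91 to −0.63). Rxra was therefore below Rxrb on every day, by 5.18-fold on day 1 and 1.71-fold on day 5. The largest gap was 13.2-fold on day 6 (log2 −3.72), in the library that differed with transcript length. Day 5 minus day 0 was 0.90 for Rxra and −0.083 for Rxrb as deposited. After the length correction these differences were 0.39 and −0.21, so the change in the ratio was smaller.

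**Figure D4:**
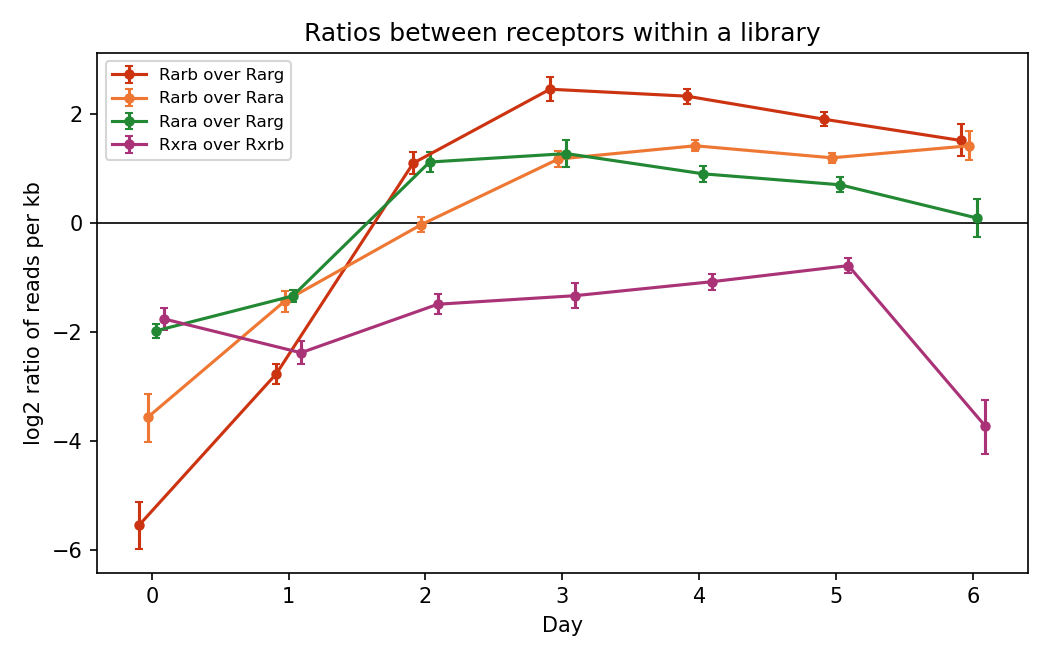
Log2 ratio of reads per kb (vertical axis) for 4 pairs of receptors within each daily library (horizontal axis), with counting intervals at 95% as bars. Rarb over Rarg passes from −5.53 on day 0 to 2.46 on day 3, while Rxra over Rxrb stays below 0 on every day.

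On day 6 all 6 rows were lower than on day 5 as deposited. For 5 of them, beside 57% of all rows, the difference was 2-fold or more, and 0 were 2-fold higher, beside 14.9%. Rxra, the longest row, had the largest difference at −3.23 (interval −3.71 to −2.78), from 903 reads to 42. Rara (3260 nt) was at −1.80, Rarb (2782 nt) at −1.58 and the Rarg rows at −1.19 and −1.21. Rxrb (2587 nt) was at −0.28 (interval −0.49 to −0.080). The rows that make up the length bin from 2328 to 2782 nt had a median of −0.80, and those from 5178 to 6693 nt one of −3.03. After the length correction the differences were −0.72 for Rxra, −0.52 for Rarb, −0.35 for Rara, −0.33 and −0.025 for the Rarg rows and 0.59 for Rxrb. With median centring Rarg NM_001042727 stood at 0.012 and Rxrb at 0.92, so the sign of these rows on day 6 depended on the scaling, while NM_011244 stood at −0.0083. The part of length in the receptors' day 6 values was not tested beyond this correction.

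**Figure D5:**
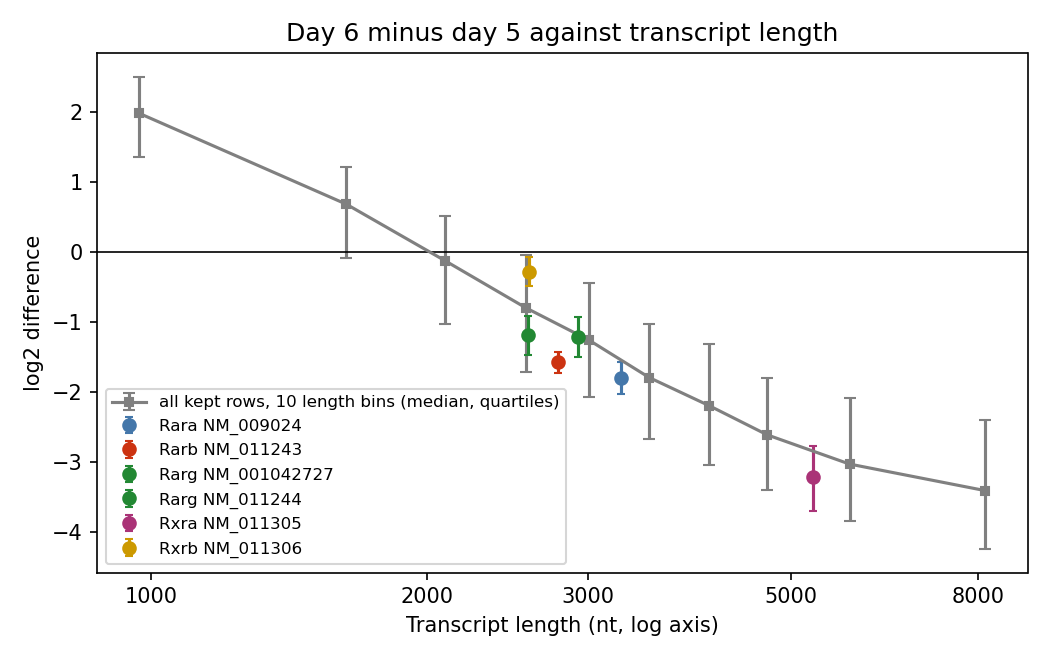
Day 6 minus day 5 log2 difference (vertical axis) against transcript length (horizontal log axis). Grey squares are medians of 10 length bins of the kept rows with quartile bars, and coloured points are the 6 receptor rows with counting intervals. Rxra, the longest row, is lowest at −3.23, and the 5 shorter rows lie between −1.80 and −0.28 without a strict order by length.

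The cell population changed over the same days, and in bulk RNA fewer cells of a type and less RNA per cell cannot be told apart. The summed level of 6 of 6 stem cell markers was 54223 scaled reads on day 0 and 18252, 3645 and 1966 on days 1, 2 and 5. That of 6 of 6 extraembryonic endoderm markers was 611, 3539, 14596 and 18305 on those days, and that of 4 of 4 fibroblast and smooth muscle markers 419, 405, 3319 and 29650. The sum of 5 of 5 neural markers lay between 1913 and 3579 over days 0 to 5, but it does not describe its members. Between days 0 and 5 Nes differed by 2.86 log2 units and Neurog1, from 3 reads, by 4.65. Sox1 differed by −1.25, after a first step of 2.30 to day 1, Pax6 by 0.22 and Tubb3 by 0.011. Of the kept rows 3 of 4 stem cell markers fell (0 rose), 3 of 4 endoderm markers, 1 of 2 neural markers and 4 of 4 fibroblast and smooth muscle markers rose (0 fell), beside 26.7% of all rows that rose and 25.7% that fell. On day 6 Nanog and Sox1 were at 1 read, the lowest value of the library. Counts start at 1 read by construction, so a marker at 0 could not be seen. Whether these 2 markers had any reads on day 6 cannot be told. The part of these populations in the receptor differences was not tested.

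Other genes of the pathway were taken from fixed lists, with the row of highest mean for each gene. Among enzymes and binding proteins that set the ligand level, 11 of 13 genes were listed and 7 kept, of which 2 rose and 0 fell, beside 26.7% and 25.7% of all rows, with a median slope of 0.63. The count is near the share over all rows. The 2 were Dhrs3, a retinaldehyde reductase gene (1.04 ± 0.27 per day, adjusted p = 0.0192), and Fabp5, a lipid-binding protein that can carry retinoic acid (0.30 ± 0.076, adjusted p = 0.0178). Cyp26a1 had a slope of 1.31 ± 0.55 (adjusted p = 0.0843) and Cyp26b1, a second enzyme that degrades retinoic acid, one of 1.25 ± 0.46 (adjusted p = 0.0585). All 11 listed genes, those below the level filter included, were at least 2-fold higher on day 5 than on day 0, beside 4018 of 15296 rows without the filter. Crabp1, a retinoic acid binding protein gene, was the closest to that limit, by 1.06 (from 7.15 to 8.21), which is under 2-fold once the 0.30 shift of the median is taken off.

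Corepressor genes, whose proteins bind the receptors without ligand or limit them, numbered 9 listed and 8 kept, of which 2 rose and 1 fell, beside 26.7% and 25.7% of all rows (median slope 0.041). Both counts are at or below those shares. Tbl1x, a subunit of nuclear receptor corepressor complexes, rose by 0.17 ± 0.052 per day (adjusted p = 0.0332). Sin3a, a histone deacetylase scaffold, fell by 0.21 per day (adjusted p = 0.0117). Ncor1, which encodes the corepressor NCoR, went from 12.78 on day 0 to 12.44 on day 5, with a slope of −0.061 (adjusted p = 0.316).

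Of 8 coactivator genes, all kept, 1 rose and 1 fell, beside 26.7% and 25.7% of all rows (median slope −0.049). Both counts are below those shares. Both belong to the p160 family that docks on ligand-bound receptors. Ncoa2 rose by 0.19 ± 0.062 per day (adjusted p = 0.0422), from 9.92 on day 0 to 10.98 on day 5. Ncoa3 fell by 0.26 per day (adjusted p = 0.0265), from 13.32 to 12.06. The acetyltransferase gene Ep300 had a slope of −0.090 (adjusted p = 0.256) and the methyltransferase gene Carm1 one of −0.075 (adjusted p = 0.0699).

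Of 13 genes for other partners of the retinoid X receptors, 6 were listed and 2 kept, of which 0 rose and 1 fell, beside 26.7% and 25.7% of all rows. That gene was Nr1h2, which encodes the oxysterol receptor LXRβ (it fell by 0.20 per day, adjusted p = 0.0242). Ppard, which encodes PPARδ, had a slope of 0.11 (adjusted p = 0.123). Among genes below the level filter, the thyroid hormone receptor gene Thra had a value of 8.09 on day 0 and 10.04 on day 5. The orphan receptor gene Nr4a1 had 10.44 and 6.56. Of 12 receptor target genes, all listed and 8 kept, 4 rose and 0 fell, beside 26.7% and 25.7% of all rows (median slope 0.77). The steepest was the orphan receptor gene Nr2f2 (1.79 ± 0.37 per day, adjusted p = 0.0089), which had only 2 reads on day 0. The others were the Hox cofactor genes Meis1 (1.03 ± 0.22, adjusted p = 0.0106) and Meis2 (0.92 ± 0.25, adjusted p = 0.0213) and the transglutaminase gene Tgm2 (0.67 ± 0.13, adjusted p = 0.00773). The 12 targets are known as such from other work, and 10 of them were at least 2-fold higher on day 1, beside 1370 of 15296 rows without the filter. On that day Rarg was 0.27 below its day 0 level on the log2 scale and Rarb was 5.68-fold above its own. From day 0 to day 5, 10 of the 12 were at least 2-fold higher and 1 (Cdx1) at least 2-fold lower. Those counts stand beside 4018 and 2313 of 15296 rows without the filter. Not all targets stayed high after day 1. Between days 1 and 5 Stra8 went from 12.70 to 6.80, Hoxb1 from 9.84 to 3.96 and Cdx1 from 9.51 to 1.26 (2 reads). Hoxb1 and Cdx1 lay below the level filter and were not in the line fit.

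For each receptor the genes with the most similar course over days 0 to 5 were found as the smallest root mean square difference between centred log2 courses, among 6800 genes. Nearest to Rarg were Pml, which encodes the scaffold of PML nuclear bodies (0.33), the amino acid transporter gene Slc7a7 (0.37), the actin nucleator gene Cobl (0.38) and the calcium channel gene Itpr3 (0.40). No gene lay within 0.25 of Rarg, whose own root mean square deviation was 1.32. Pml had 12.46, 12.41, 10.38, 9.89, 10.24 and 10.23 from day 0 through day 5. Its values on days 4 and 5 lay closer to its day 3 value than those of Rarg did.

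Nearest to Rarb were Crtc3, a CREB coactivator gene (0.18), Parva, which encodes the focal adhesion protein α-parvin (0.21), Zfpm1, the GATA cofactor gene (0.26), and the selenoprotein gene Sepn1 (0.29). Crtc3 and Parva were the 2 genes within 0.25 of it. For Rxra the nearest were Armcx1 (0.10), the polycystin channel gene Pkd2 (0.13), Iqce (0.13) and Zfp60 (0.14), with 177 genes within 0.25. Rara and Rxrb, whose courses spanned only 0.53 and 0.70 log2 units, had 1569 and 1652 genes within 0.25. Such large numbers leave their nearest genes with little meaning. These were Tecpr1, Zfp444, Cic and Fam160b2 for Rara, from 0.042 to 0.069, and Rnf26, Mrpl54, Copg2 and Akr7a5 for Rxrb, from 0.052 to 0.060. The likeness rests on 6 libraries and is a description.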

How the data were processed

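RNA sequencing values for 7 daily libraries of CCE cells were taken from 1 deposited table. The authors deposited log2 values per RefSeq transcript. BWA 0.7.3 and build mm9 are named in the submitters' processing notes, with counter, strand setting, annotation and scaling not given in the sources used here. Without strand information, reads of overlapping genes cannot be separated. Off the log scale, 100% of values up to 1000 reads were whole multiples of the smallest value of their library, within 0.05, and that value was taken as 1 read. A constant added before scaling cannot be told apart. Transcript lengths and positions (other columns) came from the same table.

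Rows with a mean log2 value over days 0 to 5 above the 40th percentile (8.51) were kept, 9177 in all, and all 6 receptor rows passed. Lines and curves on day were fitted in R 4.3.3 by limma 3.58.1, whose variance prior followed the mean (4 and 3 residual degrees of freedom), and called at an adjusted p under 0.05. The fit was tested on simulated data. p-values measure the spread of single libraries around a fitted course, since the labels do not say that days were separate cultures. Single days were compared by size only, at 2-fold, because each day has 1 library. Promoter windows came from RefSeq GRCm38.p6 and were not joined to mm9 positions. Named genes were all receptor rows, the 4 nearest courses for each receptor (predicted, clone and small RNA names left out), up to 4 genes per list (called rows by slope, then by mean level) and 3 check genes, of which Pou5f1 and Gata4 enter through the marker sums. One rising gene of the corepressor list is counted but not reported here. Blvrb, Crabp1, Nanog, Stra8, Hoxb1, Cdx1 and Neurog1 were named after their values were seen. The members and lists were chosen with earlier results of these data known. Alternatives were another scaling (median centring, quantile normalization, length correction), no filter, 1 row per symbol, no mean trend, a constant of 16 added before the log, all 7 libraries, and leaving out each library.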

Additional observations from a re-analysis of the deposited data

How the results depend on the processing

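Rarb kept a called rise in every alternative except the fit of all 7 libraries, and the F-test, refitted with all 7 libraries, without the filter, with median centring and with quantile normalization only, gave each receptor row the same call (3 called, 3 not) in 24 of 24 refits. Of 83 refits of receptor slopes 67 kept their direction and side of the threshold, 8 (Rarg and Rxra) crossed it to a call, 1 (Rarb) lost its call and 7 changed sign, the cause of which was not tested. The sign changes were Rxra with all 7 libraries (−0.16) and the near-zero slope of Rara, which was −0.16 with all 7 libraries, −0.035 with median centring, −0.0054 with quantile normalization, −0.012 with length correction, −0.017 without day 0 and −0.036 without day 5 (up to 0.046 when another library was left out). With all 7 libraries 173 rows rose and 378 fell. Without a filter 4060 rose, and the F-test called 7313. Leaving out 1 library gave 1342 (day 0) to 2623 (day 2) rising and 1454 (day 4) to 2352 (day 2) falling rows. Of the main line calls 50.9% were rising (2446 against 2355), 37.3% with median centring (1898 against 3185). The 2-fold counts without a filter were 1370 (higher) and 612 (lower) on day 1 and 4018 and 2313 on day 5, where median centring gave 2024 lower. Under another scaling 5 of 18 receptor differences on day 1 and 12 of 18 on day 5 left their counting interval, and those of Rarb and Rarg kept their sign. No paired analysis was possible because each day has 1 library and no label pairs samples. Adding up the 2 Rarg rows, chosen after seeing the data, put the summed level of the retinoic acid receptors at 3253 per kb on day 0 and 2236 on day 5. Read depth limits Rarb on day 0 (48 reads) and Rxra on day 6 (42 reads).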
